A study of Mus musculus with 2 samples.

Results

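Oxidative phosphorylation (OXPHOS) genes were taken as every gene of the count files whose symbol begins with Nduf, Uqcr, Cox4 to Cox8, Atp5 or Sdha to Sdhd, together with the mt-Nd, mt-Co, mt-Cytb and mt-Atp genes. This gave 111 members of 32285 genes. Of these, 98 are encoded in the nucleus and 13 in the mitochondrial genome. The nuclear members were sorted by role into 37 members of complex I, 4 of complex II, 8 of complex III, 20 of complex IV, 17 of complex V and 12 assembly factors. The mitochondrially encoded members were 7 of complex I, 1 of complex III, 3 of complex IV and 2 of complex V. Cox7b2, Cox8b and Cox8c, paralogs known from other tissues, had no UMI in any kept cell, and 77 nuclear and 12 mitochondrially encoded members passed the filter of 50 CPM in a library and 20 UMIs over both.

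MC38 mouse colon cancer cells were grown in both flanks of C57BL/6 mice, whose age the labels do not give, and microwave ablation (MWA) was applied to the right tumor alone, at a volume of about 300 mm3. All mice behind both libraries received MWA. According to the study, its MWA group was also given an isotype control antibody, which the labels of this library do not name. The MWA+anti-TIGIT group received MWA and an antibody against TIGIT, an inhibitory receptor of T and NK cells, into the peritoneum. According to the labels, the anti-TIGIT antibody was given 3 times at intervals of 3 days from day 1 after MWA. The methods of the study describe a longer course on the same schedule, whose last injection would fall after the collection on day 8. CD45+ leukocytes of the left tumor, which was not ablated, were collected on day 8 and measured by droplet single-cell RNA sequencing, with 1 library per group and no untreated library. The number of mice in each library was not given in the sources used here.

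Complexes I to IV pass electrons from NADH and succinate to oxygen. Complexes I, III and IV pump protons across the inner mitochondrial membrane as they do so, complex II does not, and complex V uses the proton gradient to make ATP. Complexes I, III, IV and V mix nuclear and mitochondrial gene products, whereas all subunits of complex II are nuclear. In leukocytes, OXPHOS is known to serve memory T cells, regulatory T cells and alternatively activated macrophages, while activated effector cells and neutrophils lean on glycolysis.

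The MWA library held 10217 barcodes and 66152465 UMIs, and the MWA+anti-TIGIT library 10190 barcodes and 78751205 UMIs. After filtering, 9231 and 9127 barcodes remained, with medians of 5331 and 6306 UMIs, and 28 kept barcode sequences occurred in both libraries. Cells were assigned to types by marker genes in clusters built without the members. Markers of tumor cells, fibroblasts, endothelium and erythrocytes each summed to at most 2.48 CPM over all kept cells, and Ptprc, which encodes CD45, was at 462 and 483 CPM (the UMIs of a gene scaled to a fixed total of UMIs in its library or cell type). Values below are given for the MWA library first and the MWA+anti-TIGIT library second. Since each group had 1 library, no test between groups was possible, and all 95% intervals are exact Poisson or conditional binomial intervals that cover counting error only.

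Summed over all kept cells, the nuclear members made up 26826 CPM in the MWA library and 26439 CPM in the MWA+anti-TIGIT library. The mitochondrially encoded members made up 9077 and 9710 CPM. The highest complex I transcripts were Ndufb1-ps at 667 and 633 CPM, Ndufa2 at 430 and 426 CPM and Ndufa13 at 421 and 421 CPM. Ndufb1-ps, placed in complex I by its symbol, is annotated as a noncoding RNA of a bidirectional promoter, not as a protein-coding gene. Complex II was the lowest of the complexes, with Sdhb, its iron-sulfur subunit, at 143 and 161 CPM, the membrane anchor Sdhd at 68.1 and 72.3 CPM and the catalytic Sdha at 59.9 and 64.9 CPM. Complex III was led by Uqcrh at 683 and 647 CPM, Uqcrq at 473 and 475 CPM and Uqcrb at 426 and 407 CPM. Complex IV was led by Cox8a at 1275 and 1194 CPM, Cox7c at 1070 and 963 CPM and Cox4i1 at 820 and 861 CPM. Complex V was led by Atp5e at 1464 and 1360 CPM, Atp5l at 781 and 762 CPM and Atp5g2 at 765 and 718 CPM. A UMI counts 1 captured 3′ end of a messenger, so these levels carry no scaling by transcript length. Of the 12 assembly factors, Ndufaf8 passed the filter over all cells, at 75.7 and 78.9 CPM.

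Among mitochondrially encoded members, mt-Co1, the catalytic subunit of complex IV, was highest at 2196 and 2264 CPM. It was followed by mt-Atp6 at 1591 and 1672 CPM, mt-Co3 at 1354 and 1548 CPM and mt-Co2 at 1211 and 1352 CPM. The complex III subunit mt-Cytb stood at 647 and 716 CPM. The complex I members fell in the order mt-Nd4 (508 and 567 CPM), mt-Nd1 (480 and 497 CPM), mt-Nd2 (387 and 389 CPM), mt-Nd3 (212 and 224 CPM), mt-Nd4l (169 and 180 CPM), mt-Nd5 (163 and 163 CPM) and mt-Nd6 (10.5 and 12.5 CPM). mt-Nd6, the member transcribed from the other strand, did not pass the filter. mt-Atp8 was at 149 and 126 CPM, although it shares a messenger with mt-Atp6. The genes overlap by 43 bases, which is 21.1% of the 204 bases of mt-Atp8, and a read in the shared part belongs to both genes. mt-Nd4l and mt-Nd4 share 7 bases, mt-Nd5 and mt-Nd6 14, and mt-Atp6 and mt-Co3 1. How UMIs were split between overlapping genes could not be read from the counts. The end of mt-Atp8 is printed because it shows the overlap, with the bases shared with mt-Atp6 in capitals:
mt-Atp8, last 58 bases: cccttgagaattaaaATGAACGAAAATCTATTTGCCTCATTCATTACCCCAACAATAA

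Across 21 cell types, nuclear OXPHOS transcripts differed more than mitochondrially encoded ones. The cluster led by Ctsk and Mmp9, with 26 and 24 cells, was highest with 43912 and 45967 CPM of nuclear members. Next came exhausted-like CD8 T cells (30535 and 28902 CPM), cycling-like CD8 T cells (30030 and 29697 CPM) and cycling-like macrophages (29657 and 29596 CPM). In the MWA+anti-TIGIT library the intervals of cycling-like CD8 T cells and cycling-like macrophages overlapped, as did those of exhausted-like and effector-like CD8 T cells. Effector-like CD8 T cells were at 27755 and 28834 CPM, C1q macrophage-like cells at 27047 and 26861 CPM and Treg-like cells at 28145 and 26762 CPM. At the lower end were mature DC-like cells at 22826 and 21637 CPM, hypoxic macrophage-like cells at 22292 and 21882 CPM, B-like cells at 17791 and 16246 CPM, stem-like CD8 T cells at 17738 and 17649 CPM and neutrophil-like cells at 15172 and 14166 CPM. B-like and stem-like cells overlapped in the MWA library.

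**Figure D1:**
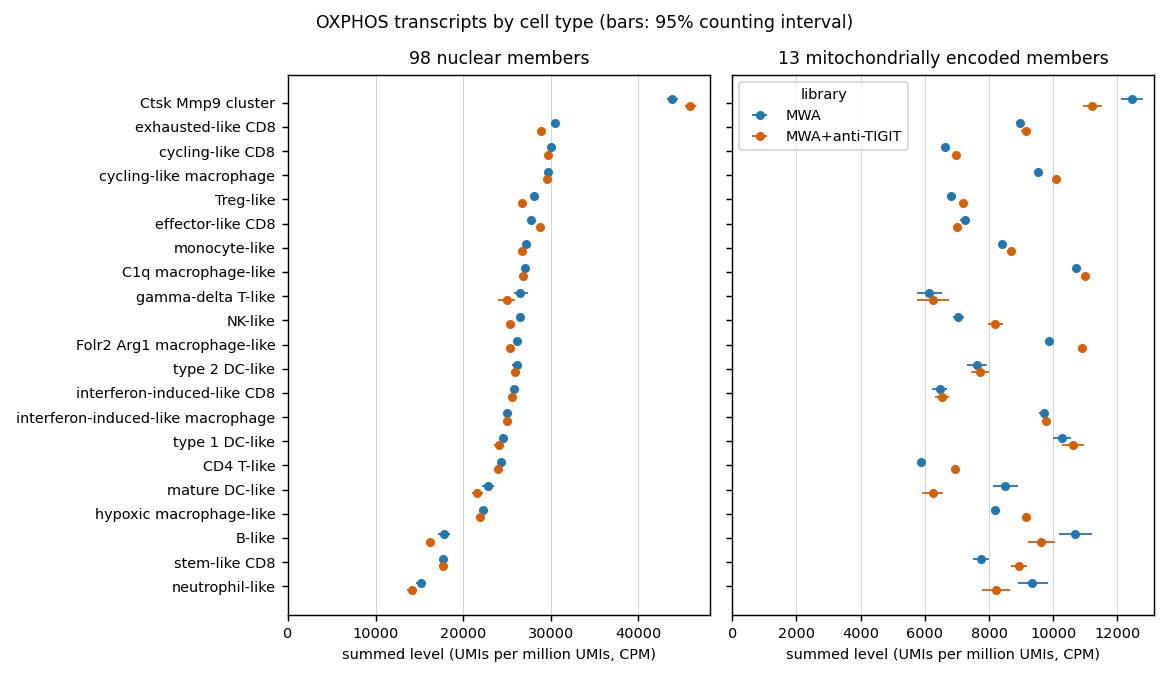
Summed level (CPM, x axis) of the 98 nuclear and the 13 mitochondrially encoded members in each cell type (y axis, ordered by the nuclear level in the MWA library), with 1 point per library and bars for the 95% counting interval. The nuclear level runs from 43912 CPM in the Ctsk Mmp9 cluster to 15172 CPM in neutrophil-like cells of the MWA library, and the mitochondrially encoded level follows another order, with CD4 T-like cells lowest at 5890 CPM there.

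The mitochondrially encoded members followed another order. The Ctsk Mmp9 cluster was again highest at 12446 and 11220 CPM, followed by C1q macrophage-like cells at 10694 and 10983 CPM, with overlapping intervals in the MWA+anti-TIGIT library. B-like cells (81 and 63 cells), which were near the bottom for nuclear members, reached 10684 and 9625 CPM. Immunoglobulin genes (Igkc, Ighg2c, Igha, Ighm, Iglc2) and the plasma cell markers Jchain and Mzb1 were among their leading genes, beside Cd79a. The part of these transcripts in the CPM values of B-like cells was not tested. T cell types ranged widely: CD4 T-like cells were at 5890 and 6954 CPM, gamma-delta T-like cells at 6126 and 6244 CPM, interferon-induced-like CD8 T cells at 6460 and 6536 CPM and exhausted-like CD8 T cells at 8976 and 9148 CPM, in the middle of the order. The ratio of nuclear to mitochondrially encoded UMIs was therefore widest in cycling-like CD8 T cells, at 4.53 and 4.27, and narrowest in neutrophil-like cells, at 1.62 and 1.73, and B-like cells, at 1.67 and 1.69. Cells over 10% mitochondrial UMIs had been left out, which acts on the mitochondrially encoded members directly. A low-UMI cluster led by Mcpt2 and Cma1 was not counted as a type, nor were T and NK cell clusters that the rules left unnamed. CD8 T cells outside the named states (378 and 311 cells) were part of the CD8 class but not a type. Their mitochondrially encoded members were at 6497 and 7625 CPM.

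Single members varied by a median of 3.48-fold between the highest and the lowest of the 21 types for nuclear genes and 2.19-fold for mitochondrially encoded genes, using the smaller fold of the libraries. The Ctsk Mmp9 cluster was the highest of the 21 types in both libraries for 59 of the 77 nuclear members. Over the 15 types with at least 90 barcodes in each library, which leave that cluster out, the medians were 2.44-fold and 1.87-fold. Cycling-like macrophages were then highest in both libraries for 27 nuclear members. Over the 21 types Ndufa4, a subunit now placed in complex IV, varied most among the members with the same highest and lowest type in both libraries. It was at 617 and 659 CPM in cycling-like CD8 T cells and at 98.4 and 75.4 CPM in hypoxic macrophage-like cells. Ndufb8, an accessory subunit of complex I, ran from 585 and 594 CPM in the Ctsk Mmp9 cluster to 83.7 and 95.1 CPM in stem-like CD8 T cells. The other 3 of the 5 most varying members were highest in the Ctsk Mmp9 cluster and lowest in neutrophil-like cells. Ndufab1, the mitochondrial acyl carrier protein, was at 363 and 352 CPM against 66.0 and 54.2 CPM. Ndufs5 was at 308 and 259 CPM against 48.0 and 48.2 CPM, and the complex V subunit Atp5o at 406 and 594 CPM against 78.1 and 102 CPM. The lowest values rest on 8 to 17 UMIs per library.

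**Figure D2:**
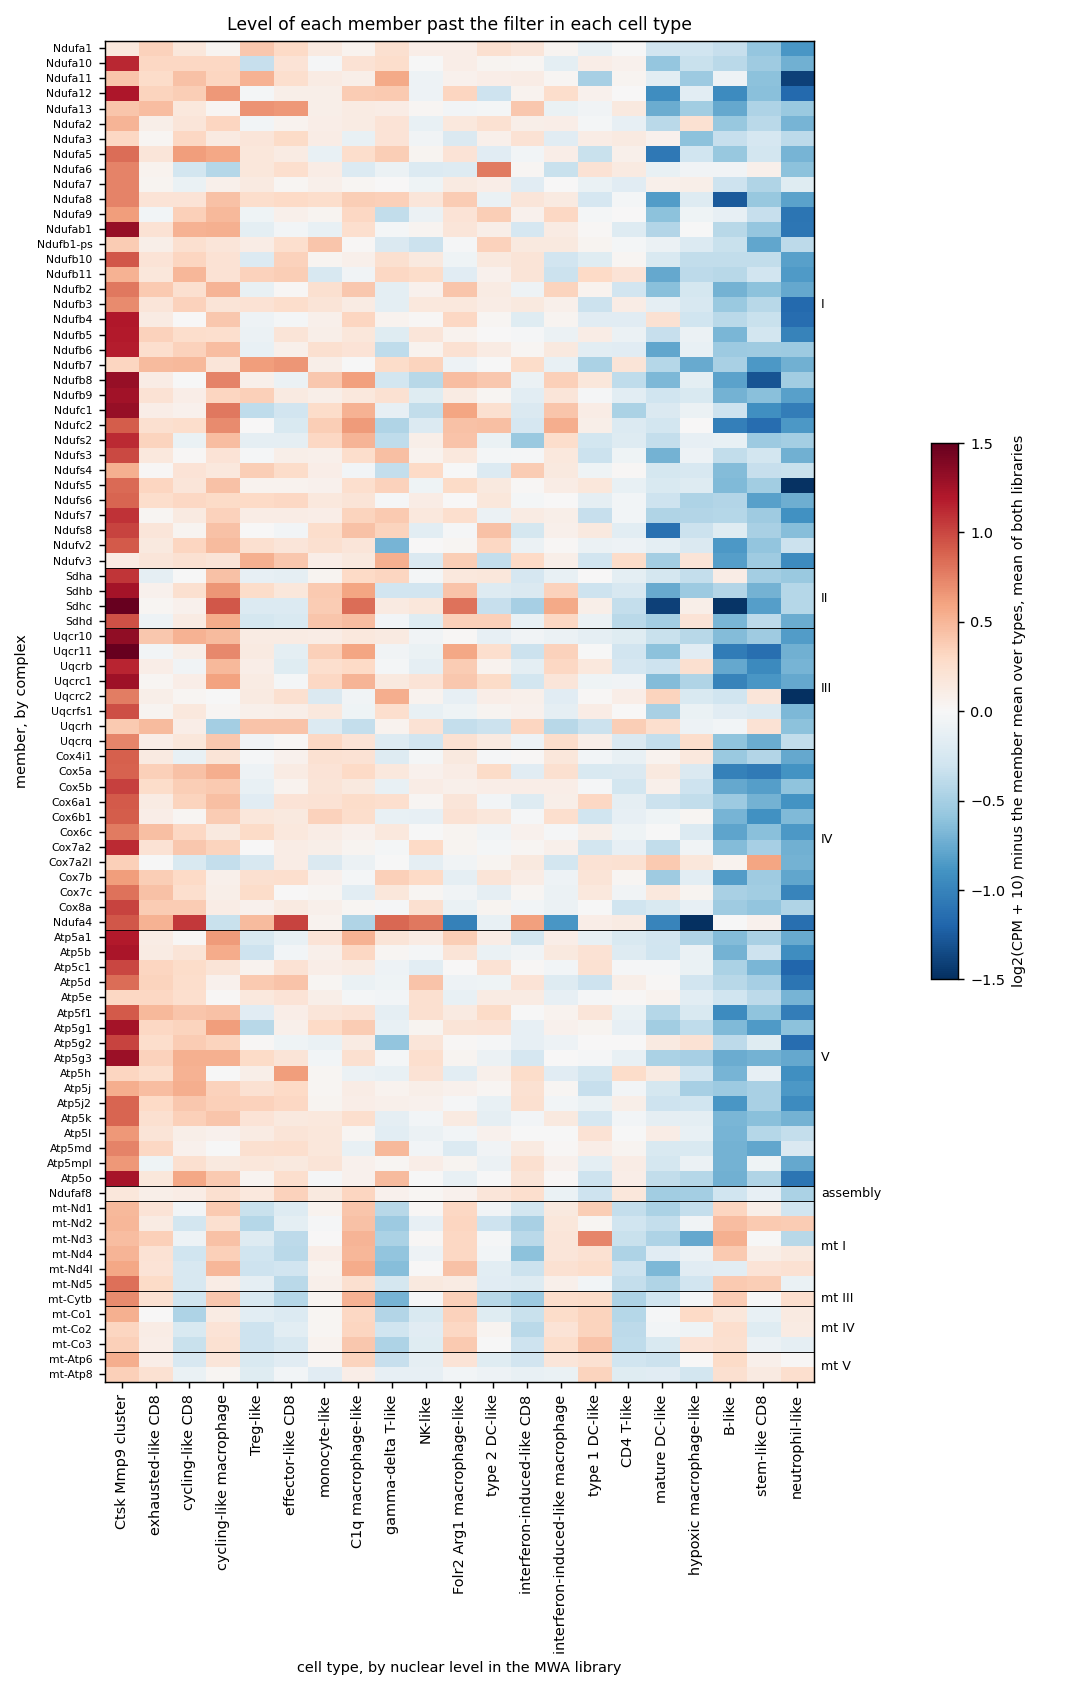
Level of each member that passed the filter (y axis, grouped by complex) in each cell type (x axis), as log2(CPM + 10) minus the mean of that member over the types, averaged over both libraries. The Ctsk Mmp9 cluster is above the mean for nearly all nuclear members, neutrophil-like and stem-like cells are below it, and Ndufa4 follows a pattern of its own with its lowest value in hypoxic macrophage-like cells.

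In stem-like CD8 T cells (132 and 144 cells, named from a marker list that holds Tcf7 and Lef1), 53 of 74 nuclear members lay more than 0.5 below effector-like CD8 T cells on the log2 scale in both libraries, and none lay above. Among all genes, 40.3% lay as far below and 7.16% above. The complexes took part as 24 members of complex I, 1 of complex II, 5 of complex III, 9 of complex IV, 13 of complex V and the assembly factor Ndufaf8. Ndufb7 was at 110 and 149 CPM in stem-like cells against 340 and 437 CPM in effector-like cells, a log2 difference of −1.63 and −1.55. Cox5a was at 205 and 198 CPM against 463 and 475 CPM. Cox7a2l went the other way, at 471 and 416 CPM against 283 and 350 CPM. Stem-like cells had the highest level of Cox7a2l of the 21 types in the MWA library. The mitochondrially encoded members were not lower: their sum was 1.07 and 1.27 times that of effector-like cells, and mt-Nd5 passed the fold upward in both libraries.

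The nuclear difference depended on the denominator. Ribosomal protein transcripts took up 54.9% and 52.3% of UMIs in stem-like cells against 35.4% and 32.1% in effector-like cells. The summed nuclear members of stem-like cells were 0.639 and 0.612 times those of effector-like cells on the CPM scale. With ribosomal protein genes left out of the total they were 0.916 and 0.872 times. Treg-like over CD4 T-like cells moved down through 1, from 1.16 and 1.12 times to 0.926 and 0.904 times. The Ctsk Mmp9 cluster over all macrophages moved further up, from 1.64 and 1.75 times to 1.98 and 1.99 times, and neutrophil-like over monocyte-like cells further down, from 0.558 and 0.530 times to 0.479 and 0.451 times.

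**Figure D3:**
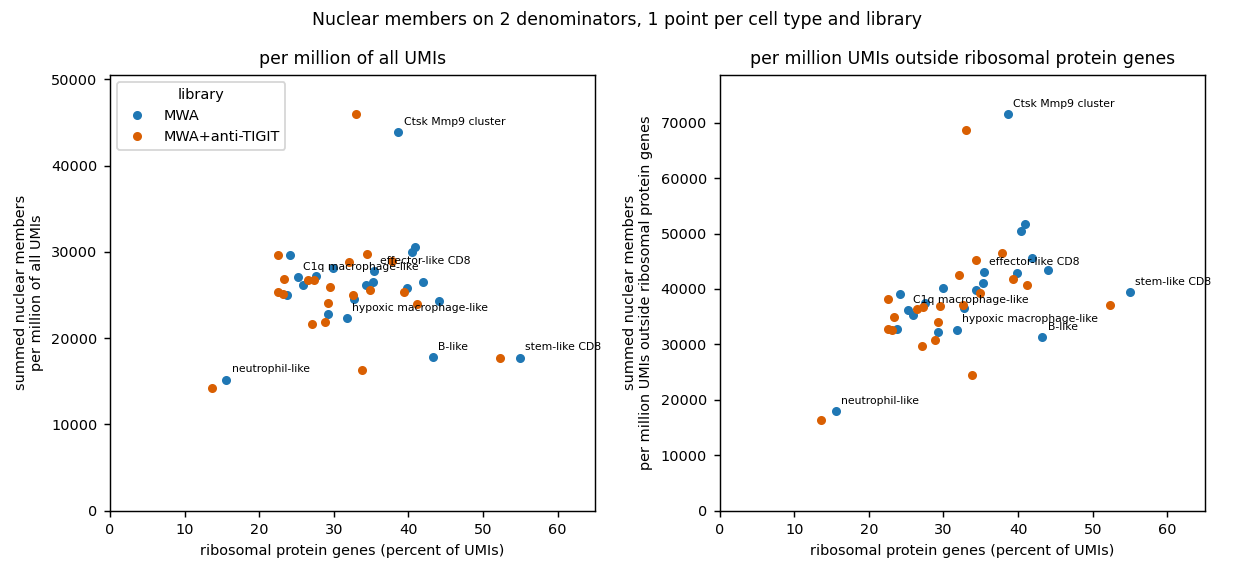
Summed nuclear members (y axis) against the share of ribosomal protein UMIs (x axis, percent), scaled to all UMIs on the left and to the UMIs outside ribosomal protein genes on the right, with 1 point per cell type and library and 7 types named at their MWA point. Stem-like CD8 T cells, at 54.9% ribosomal UMIs, sit near the bottom on the left and among the other lymphocytes on the right, whereas the Ctsk Mmp9 cluster stays highest and neutrophil-like cells lowest in both.

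The Ctsk Mmp9 cluster kept its place under both denominators. Of 78 nuclear members, 56 (71.8%) lay more than 0.5 above all macrophages on the log2 scale in both libraries, against 16.4% of all genes, and none lay below, where 27.1% of all genes did. Cox8a was at 2531 and 2350 CPM against 1233 and 1166 CPM, Uqcr11 at 910 and 961 CPM against 441 and 447 CPM, and Ndufa4 at 590 and 581 CPM against 203 and 162 CPM. Among mitochondrially encoded members 1 of 12 passed. The cells were deep, with medians of 13526 and 19256.5 UMIs. C1q macrophage markers summed to 3892 and 3364 CPM, against 31292 and 36328 CPM in all macrophages. Of the 9 neutrophil markers, a list that holds Mmp9, 4 were at 0. The genes that led the cluster were Ctsk, Mmp9, Acp5, Slc9b2, Atp6v0d2, Mt3, Bdh2, Jdp2, Nfatc1 and Cd109. Of these, only Mmp9 was in a marker list, and the naming rules gave the cluster no cell type name. Its 26 and 24 cells were 0.282% and 0.263% of the kept cells.

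Neutrophil-like cells were below monocyte-like cells by more than 0.5 for 63 of 76 nuclear members (82.9%), against 36.6% of all genes. None was above, against 24.5% of all genes. The cells were shallow: the median barcode held 978.5 and 1170.5 UMIs, where monocyte-like barcodes held 5344 and 7468. Ndufs5 was at 48.0 and 48.2 CPM against 164 and 157 CPM, and Atp5c1, the central stalk subunit of complex V, at 126 and 120 CPM against 304 and 330 CPM. None of the 12 mitochondrially encoded members passed the fold, and their sum was 1.11 and 0.943 times that of monocyte-like cells. In B-like over CD4 T-like cells 23 of 73 nuclear members (31.5%) were lower, a share near the 25% of all genes, while 6 of 12 mitochondrially encoded members were higher, against 14.9% of all genes, and their sum was 1.81 and 1.38 times as high.

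The cluster named hypoxic macrophage-like had the hypoxia genes Ndrg1 and Hilpda among its 10 leading genes, but also the heat-shock genes Hspb1, Hspa1b, Hspa1a and Hsph1 and the stress gene Hmox1. Its hypoxia markers summed to 1935 and 2177 CPM, against 254 and 272 CPM in C1q macrophage-like cells. At the finer resolution of 1 heat-shock genes led a cluster of their own, and the part of the stress genes in the values below was not tested. Within macrophages, 31 of 77 nuclear members (40.3%) were lower in hypoxic macrophage-like than in C1q macrophage-like cells, against 32.4% of all genes, none was higher, against 9.63%, and the direction of the sum turned with TMM scaling, from −0.28 and −0.30 to 0.06 and 0.04 on the log2 scale. Sdhb was at 70.1 and 88.5 CPM in hypoxic macrophage-like cells against 176 and 196 CPM. Uqcrc1, a core subunit of complex III, was at 63.2 and 60.2 CPM against 128 and 132 CPM. Atp5a1, the alpha subunit of the complex V head, was at 150 and 153 CPM against 294 and 318 CPM. Among mitochondrially encoded members mt-Nd3 was lowest in relative terms, at 101 and 115 CPM against 271 and 277 CPM. The 15 listed glycolysis genes summed to 14586 and 16814 CPM in hypoxic macrophage-like cells and 6170 and 6753 CPM in C1q macrophage-like cells, and 1 of them, Slc2a1, was also a marker used to name the hypoxic state. Cycling-like macrophages had 65 of 77 nuclear members above C1q macrophage-like cells in both libraries, none of them past the fold in both, and 12 of 12 mitochondrially encoded members below. Of 2715 genes, 1391 were above and 1018 below in both libraries, with 10.2% past the fold upward and 2.43% downward. In Folr2 Arg1 macrophage-like over C1q macrophage-like cells Ndufa4 alone passed, downward, against 4.06% of all genes, and 4.98% passed upward. No nuclear or mitochondrially encoded member passed in monocyte-like over C1q macrophage-like cells, against 7.47% of all genes upward and 9.71% downward, although the mitochondrially encoded sum was 0.785 and 0.792 times as high.

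The summed nuclear members of macrophages were 0.944 and 0.945 times those of CD8 T cells on the CPM scale, and 0.742 and 0.782 times with ribosomal protein genes left out of the total. Of the members, 5 of 77 were higher and 2 lower in macrophages past the fold, against 34.2% and 24.7% of all genes. The lower ones were Ndufa4, at 203 and 162 CPM in macrophages against 535 and 567 CPM in CD8 T cells, and Uqcrh, at 572 and 557 CPM against 896 and 884 CPM. The higher ones included Sdhc, a membrane anchor of complex II, at 72.6 and 74.6 CPM against 34.9 and 36.9 CPM, and Ndufb8 at 338 and 334 CPM against 220 and 215 CPM. The mitochondrially encoded sum was 1.35 and 1.39 times as high in macrophages. Exhausted-like CD8 T cells also exceeded effector-like cells in mitochondrially encoded members, by 1.24 and 1.31 times, with mt-Nd3, mt-Nd4, mt-Nd4l, mt-Nd5 and mt-Cytb past the fold in both libraries. The share among all genes was 8.73% upward and 11.9% downward, and no nuclear member passed. In cycling-like over effector-like CD8 T cells Ndufab1 and Ndufa5 passed upward and none downward, against 15.4% and 12.9% of all genes.

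An assembly factor stood out in Treg-like cells. Sdhaf1, which helps to load the iron-sulfur clusters of complex II, was at 188 and 170 CPM in Treg-like cells against 50.8 and 43.0 CPM in CD4 T-like cells. Treg-like and mature DC-like cells (181 and 191 CPM) were its highest types in both libraries, and all macrophages were at 24.2 and 23.1 CPM. Sdhaf1 was named after its values were seen. With it, 3 of 75 nuclear members passed the fold in Treg-like over CD4 T-like cells, against 29% of all genes, and none was lower, against 6.32%.

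Paralogs with restricted expression in other tissues were scarce. Cox4i1, the common isoform, was at 726 and 775 CPM in CD8 T cells and 868 and 890 CPM in macrophages, whereas Cox4i2, known from lung and hypoxic cells, had 0 UMIs in CD8 T cells and 83 and 147 UMIs in macrophages. Cox4i2 was at 4.0 and 6.0 CPM in hypoxic macrophage-like cells. Cox6a1 was at 313 and 328 CPM in CD8 T cells and 333 and 338 CPM in macrophages. Cox6a2, the heart and muscle isoform, was at 6.4 and 6.9 CPM in macrophages but at 230 and 82.8 CPM in type 2 DC-like cells. There its 71 UMIs came from 5 barcodes, all of which held at least 2 UMIs of plasmacytoid dendritic cell markers, and its 32 UMIs in the other library came from 3 barcodes, 2 of them such. Cox7a1 was at 3.6 and 2.6 CPM in CD8 T cells and 19.8 and 20.4 CPM in macrophages. Ndufa4l2, a hypoxia-linked relative of Ndufa4, had 0 UMIs in CD8 T cells and 32 and 20 UMIs in 7 and 6 hypoxic macrophage-like barcodes. Folr2 Arg1 macrophage-like cells held 5 and 53 UMIs of it in 4 and 8 barcodes, more than the hypoxic cells in the MWA+anti-TIGIT library. In the MWA library 1 mature DC-like barcode held 8. Cox6b2, known from testis, was at 2.3 and 2.8 CPM in CD8 T cells, where Cox6b1 was at 594 and 583 CPM, Cox7a2 at 546 and 520 CPM and Cox7b at 400 and 397 CPM. The genes for the c ring of complex V, Atp5g1, Atp5g2 and Atp5g3, encode the same mature protein and were all present, at 429 and 393, 813 and 730, and 274 and 272 CPM in CD8 T cells.

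Between libraries the sums of nuclear members were close in both large classes. In CD8 T cells (1928 and 2048 cells) their sum was 28303 CPM in the MWA library and 27867 CPM in the MWA+anti-TIGIT library, a log2 ratio of −0.02 (−0.03 to −0.01). Of the 5 named CD8 states, 1 was above 0 and 4 were below, 2 of them with intervals below 0. The state above 0 was effector-like cells, 501 and 835 in number, from 27755 to 28834 CPM (0.04 to 0.07 on the log2 scale). Exhausted-like cells, 316 and 205, went from 30535 to 28902 CPM (−0.10 to −0.06). The rise in effector-like cells depended on the denominator. With ribosomal protein genes left out of the total, effector-like cells went down, from 42985 to 42461 CPM. Exhausted-like cells then went from 51649 to 46447 CPM. In macrophages (3679 and 3771 cells) the sum of nuclear members was 26718 and 26327 CPM, also −0.02 (−0.03 to −0.02). The sign turned in both classes, to 0.04 and 0.004, when barcodes over 5000 UMIs were left out. None of the 76 nuclear members past the filter in CD8 T cells and none of the 77 in macrophages differed by 0.5 or more, against 2.02% of all genes higher and 0.633% lower in CD8 T cells and 0.55% higher and 0.275% lower in macrophages. In CD8 T cells 34 members were above 0 and 42 below, with a median of −0.01, while the median over 2371 genes was 0.14 and 77.4% of them were above 0. In macrophages 32 were above and 45 below, with a median of −0.01, against 0.04 over 2546 genes. TMM factors, a scaling that sets the typical gene near 0, moved all log2 ratios by −0.13 in CD8 T cells and −0.03 in macrophages. The share of ribosomal protein UMIs was 41.9% and 36.9% in CD8 T cells and 26.0% and 23.8% in macrophages, and its part in this was not tested.

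The complexes did not differ from each other by much. In CD8 T cells complex I was at −0.01 (−0.03 to 0.004), complex III at −0.03, complex IV at −0.04 and complex V at −0.02, whereas complex II was at 0.15 (0.07 to 0.23), from 253 to 281 CPM. The median over all genes was 0.14 there, so complex II lay near the typical gene and the other complexes below it. In macrophages complex II was at 0.08 (0.04 to 0.11), from 375 to 396 CPM, and complex IV at −0.05 (−0.06 to −0.04), beside a median of 0.04 over all genes. The highest ratios among members in CD8 T cells were those of Uqcrc1, from 80.8 to 96.4 CPM, Ndufa9, from 45.4 to 53.7 CPM, and Sdha, from 46.3 to 53.0 CPM, with log2 ratios of 0.25, 0.24 and 0.19. The lowest ratios were those of Ndufa5 (177 to 154 CPM) and mt-Atp8 (144 to 126 CPM), both at −0.20, and Ndufa12 (166 to 146 CPM) at −0.18. Among these, mt-Atp8 was also among the lowest in macrophages.

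**Figure D4:**
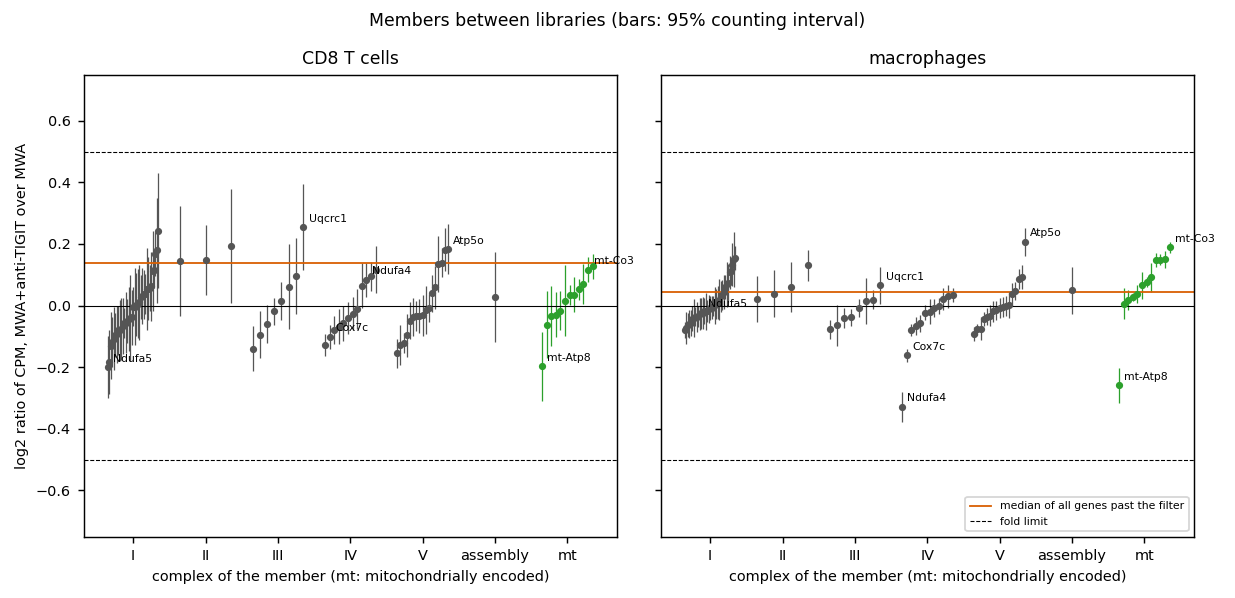
Log2 ratio of CPM, MWA+anti-TIGIT over MWA (y axis), for each member past the filter in CD8 T cells and in macrophages, grouped by complex with mitochondrially encoded members in green. Bars are 95% counting intervals, the orange line is the median of all genes past the filter (0.14 and 0.04) and the dashed lines mark the fold of 0.5, which no member reached.

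In macrophages the ends of the distribution were Ndufa4, from 203 to 162 CPM (−0.33, −0.38 to −0.28), mt-Atp8, from 146 to 122 CPM (−0.26, −0.32 to −0.20), and Cox7c, from 1041 to 931 CPM (−0.16, −0.18 to −0.14). At the upper end were Atp5o, from 197 to 227 CPM (0.21, 0.16 to 0.25), mt-Co3, from 1475 to 1682 CPM (0.19, 0.17 to 0.21), and Ndufv3, from 278 to 309 CPM (0.15, 0.12 to 0.19). Over the 21 types the ratio of Atp5e, the highest complex V member, ran from −0.44 to −0.01, and its interval lay below 0 in 13; the matching share of all genes was not computed. No replicate library tells whether differences of this size recur.

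As a sum, the mitochondrially encoded members were slightly higher in the MWA+anti-TIGIT library. Their sum was 9740 and 10380 CPM in macrophages (0.09, 0.09 to 0.10) and 7200 and 7461 CPM in CD8 T cells (0.05, 0.04 to 0.07), where TMM scaling turned the sign, to −0.08. It was higher in 16 of 21 types and lower in 5. CD4 T-like cells went from 5890 to 6954 CPM (0.24), NK-like cells from 7040 to 8196 CPM (0.22), stem-like CD8 T cells from 7750 to 8934 CPM (0.21) and hypoxic macrophage-like cells from 8177 to 9138 CPM (0.16). Effector-like CD8 T cells went from 7245 to 7009 CPM (−0.05), and mature DC-like cells, with 35 and 32 cells, from 8507 to 6244 CPM (−0.45). In CD8 T cells mt-Atp8, mt-Nd1, mt-Nd2, mt-Nd3 and mt-Nd5 were below 0, between −0.20 and −0.02. The other members past the filter were above 0, up to 0.13 for mt-Co2, where the median over all genes was 0.14. In macrophages mt-Atp8 alone was below 0, at −0.26, and the median over all genes was 0.04. The MWA+anti-TIGIT library also had more barcodes over the limit of 10% mitochondrial UMIs, 265 against 178, and a higher median mitochondrial share in kept cells, 0.804% against 0.758%. Their part in the difference was not tested.

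Ndufa4 was the only member past the filter whose counting intervals lay on opposite sides of 0, at 0.08 (0.03 to 0.14) in CD8 T cells and −0.33 in macrophages. With TMM factors the ratio in CD8 T cells turned, to −0.04, and both classes were then below 0. AA467197, a relative of Ndufa4 whose human counterpart is known as a replacement subunit of complex IV in inflammation, was looked up after these values were seen. Within macrophage states Ndufa4 went from 244 to 195 CPM in C1q macrophage-like cells (−0.41 to −0.24), from 168 to 125 CPM in Folr2 Arg1 macrophage-like cells (−0.53 to −0.31) and from 98.4 to 75.4 CPM in hypoxic macrophage-like cells (−0.57 to −0.20), all lower in the MWA+anti-TIGIT library. The CD8 states went both ways. Ndufa4 went from 583 to 652 CPM in effector-like (0.04 to 0.29) and from 617 to 659 CPM in cycling-like CD8 T cells (0.01 to 0.18), whereas exhausted-like cells were at 453 and 424 CPM (−0.25 to 0.06) and interferon-induced-like CD8 T cells at 471 and 462 CPM (−0.30 to 0.25). AA467197 was at 349 and 419 CPM in macrophages and 80.1 and 56.4 CPM in CD8 T cells. It was highest in interferon-induced-like macrophages, at 839 and 1031 CPM, where Ndufa4 was at 175 and 146 CPM. It was at 399 and 519 CPM in hypoxic macrophage-like cells, 651 and 721 CPM in monocyte-like cells and 13.2 and 9.33 CPM in stem-like CD8 T cells. The Ctsk Mmp9 cluster had little AA467197, 45.4 and 59.4 CPM, beside 590 and 581 CPM of Ndufa4.

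**Figure D5:**
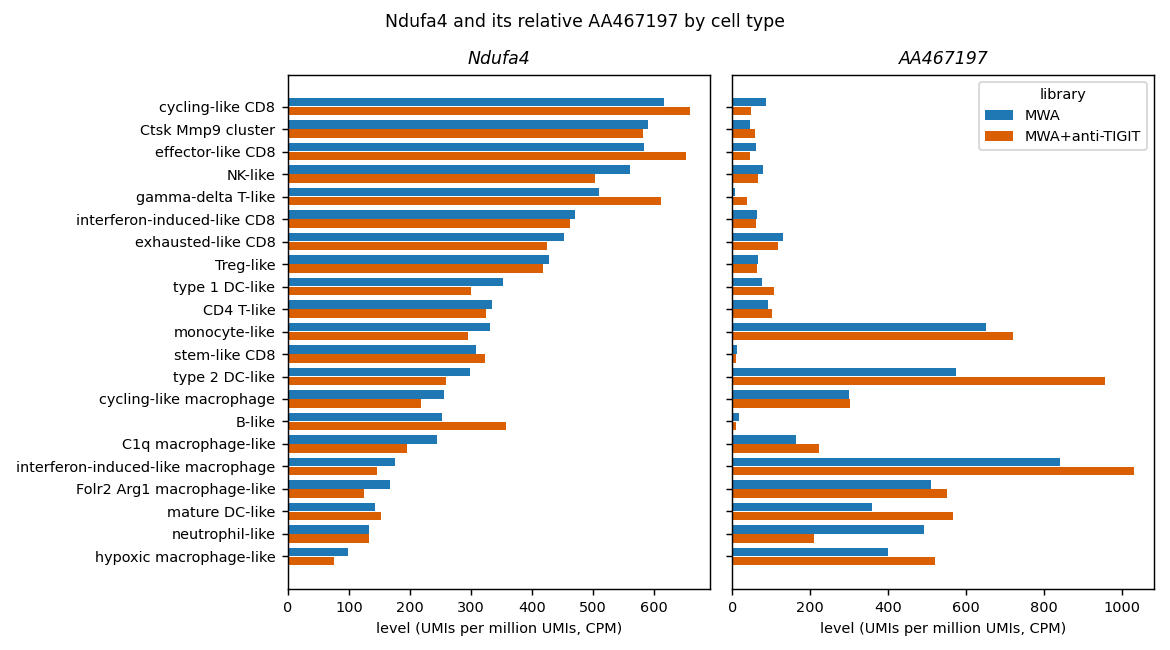
Level (CPM, x axis) of Ndufa4 on the left and of AA467197 on the right in each cell type (y axis, ordered by Ndufa4 in the MWA library), with 1 bar per library. Ndufa4 falls from 617 CPM in cycling-like CD8 T cells to 98.4 CPM in hypoxic macrophage-like cells, and AA467197 is highest in interferon-induced-like macrophages, at 839 and 1031 CPM.

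The AA467197 gene (GRCm38 chr2:122636986-122641191, plus strand) holds the miRNA hairpin Mir147 (chr2:122640803-122640881). The mature miRNA was not listed in the RefSeq table used here. The letters CCGCACA in the Ndufa4 3′ UTR, whose reverse complement UGUGCGG lies at positions 49 to 55 of the hairpin, are printed because they link the sequences of both genes. In the transcript Ndufa4-201 (468 bases) they are positions 359 to 365, 52 bases after the stop codon, at chr6:11900476-11900482 on the minus strand. The same letters occur anywhere in a coding transcript of 1849 of 21877 genes (8.45%) and of 3 of 96 nuclear members, Atp5f1, Ndufa4 and Ndufs5. Whether they lie in the 3′ UTR was looked up for Ndufa4 only. A match of letters is no evidence of binding, and the part of this miRNA in the Ndufa4 levels was not tested. The matching letters are in capitals:
Ndufa4 3′ UTR: ttcagaagccatCCGCACAatttt
Mir147 hairpin: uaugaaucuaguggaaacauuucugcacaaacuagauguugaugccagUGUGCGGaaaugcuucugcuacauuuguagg

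Promoters of nuclear members were searched for letters of factors known to act on OXPHOS genes, in RefSeq windows of GRCm38.p6 from 250 bases before to 50 after the start. A window was listed for 79 of the 98 nuclear members. The core of the NRF1 site, GCATGCG, was found on either strand in 12 of 79 (15.2%), against 4.23% of 20188 other promoters. The ETS letters CCGGAAG, bound by GABP, were in 21 (26.6%) against 11.0%, and the YY1 letters AAGATGG in 10 (12.7%) against 6.36%. Any of these was in 37 (46.8%) against 19.7%. The windows of Ndufb8, Uqcr11 and Ndufa4 are printed because Ndufb8 and Uqcr11 were both low in stem-like CD8 T cells and Ndufa4 followed another pattern across types. Motif letters are in capitals. Ndufb8 (chr19:44555393-44555692, minus strand) holds the YY1 letters once. Uqcr11 (chr10:80406772-80407071, minus strand) holds the ETS letters once and an NRF1 core readable on both strands. Ndufa4 (chr6:11907401-11907700, minus strand) holds none of these letters:
Ndufb8: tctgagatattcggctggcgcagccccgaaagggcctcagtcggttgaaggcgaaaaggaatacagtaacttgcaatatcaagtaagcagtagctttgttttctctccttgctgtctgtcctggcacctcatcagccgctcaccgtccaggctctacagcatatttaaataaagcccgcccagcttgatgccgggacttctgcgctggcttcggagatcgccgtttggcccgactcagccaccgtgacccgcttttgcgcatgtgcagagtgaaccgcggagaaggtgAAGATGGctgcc
Uqcr11: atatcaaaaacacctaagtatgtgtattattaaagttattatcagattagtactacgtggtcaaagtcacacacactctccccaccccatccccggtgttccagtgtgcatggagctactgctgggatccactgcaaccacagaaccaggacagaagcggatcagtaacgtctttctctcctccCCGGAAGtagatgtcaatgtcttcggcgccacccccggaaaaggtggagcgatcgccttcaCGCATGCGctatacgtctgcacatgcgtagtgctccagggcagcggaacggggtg
Ndufa4: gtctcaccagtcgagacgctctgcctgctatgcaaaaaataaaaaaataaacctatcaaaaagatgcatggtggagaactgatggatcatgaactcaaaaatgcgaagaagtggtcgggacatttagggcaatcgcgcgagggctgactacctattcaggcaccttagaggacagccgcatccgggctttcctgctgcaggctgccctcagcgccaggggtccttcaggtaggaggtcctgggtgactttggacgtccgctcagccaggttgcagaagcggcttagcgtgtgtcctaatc

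Other genes of mitochondria and of energy metabolism were followed in lists. In CD8 T cells and in macrophages 0 genes of any list passed the fold, beside the shares of all genes given above. Cytochrome c, carriers and uncoupling genes (9 of 9 past the filter) were at 0.02 in CD8 T cells and 0.03 in macrophages, mitochondrial ribosome genes (42 and 43 of 78) at −0.01 and −0.02, and mitochondrial DNA expression genes (2 of 12) at 0.03 and −0.06. TCA cycle genes (7 and 8 of 17) went from 754 to 820 CPM in CD8 T cells (0.12) and from 827 to 852 CPM in macrophages (0.04). Glycolysis genes (10 and 14 of 15) were at 5210 and 5274 CPM in CD8 T cells (0.02) and went from 8958 to 10001 CPM in macrophages (0.16). Biogenesis regulators (1 of 9) were at 0.17 and 0.03, and assembly factors of complexes III and IV outside the member rule (4 of 15) at 0.09 and −0.03. Genes of stress and dissociation (5 and 7 of 8) were at 0.07 in CD8 T cells and −0.17 in macrophages.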

How the data were processed

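CD45+ cells of the non-ablated tumor were measured by 10x 3′ single-cell RNA sequencing, with 1 library per group. The authors deposited raw UMI counts per gene and barcode, made with Cell Ranger on mm10. The submitters' processing notes name version 6.1.1 and the matrix header 4.0.0. Barcodes with under 200 genes or over 10% mitochondrial UMIs were left out, and doublets were called against simulated pairs (806 and 786). Barcodes were integrated across libraries in Seurat (5.3.0, R 4.3.3) and grouped by shared neighbours (2000 variable genes, 3000 integration features, 40 components, resolution 0.1 for all cells, 1 for T and NK cells and 0.5 within classes), with the members and other mitochondrial genes left out. UMIs were summed per class and library and scaled to CPM in Python 3.11.15. A member was counted at 50 CPM in a library and 20 UMIs in both together, and the fold was 0.5 on the log2 scale, required in both libraries for comparisons between types. With 1 library per group no test was made. The scripts were tested on simulated data. Of 500 doublets added to each library, 59.8% and 58% were called, so some doublets may remain among the kept barcodes. Intervals cover counting error at 95%. Named were the 3 highest and 3 lowest ratios in CD8 T cells and macrophages, the 3 highest members per complex, the 5 most varying members, all mitochondrially encoded members and members with paralogs. Genes named beside the type comparisons are examples chosen after their values were seen. Members, lists and marker lists were chosen with earlier results of these data known, and the rules that name clusters were set after clusters were seen.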

Additional observations from a re-analysis of the deposited data

Results flagged for a closer look

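Ndufa4 had counting intervals on opposite sides of 0 in the classes compared, with a log2 ratio of MWA+anti-TIGIT over MWA of 0.083 in CD8 T cells and −0.33 in macrophages. The difference between classes was not tested. The ratio in CD8 T cells was −0.04 with TMM factors, so that both classes were then below 0, and 0.25 without barcodes over 5000 UMIs.

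A low-UMI cluster led by Mcpt2 and Cma1 lay outside the cell types. Its summed nuclear members were at 13968 CPM in the MWA library and 19258 CPM in the MWA+anti-TIGIT library, with 224 and 316 barcodes of 1360 and 1178 median UMIs. Its mitochondrially encoded members were at 49097 and 42528 CPM.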

How the results depend on the processing

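No paired analysis was possible because each group has 1 library. The denominator without ribosomal protein genes and the same mix of states were chosen after seeing the data. Values are log2 differences, main value first, and causes were not tested. Between libraries, nuclear members in CD8 T cells (−0.02) were at −0.15 with TMM factors, 0.041 without barcodes over 5000 UMIs (4901 and 5399 barcodes), −0.14 without ribosomal protein genes and −0.013 with the same mix of states; in macrophages (−0.02) they were at −0.056, 0.0042 and −0.065 for the first 3 settings. Mitochondrially encoded members in CD8 T cells (0.05) were at −0.077 with TMM, 0.021 with a limit of 5% mitochondrial UMIs, 0.0014 without barcodes over 5000 UMIs and 0.070 with the same mix. In macrophages (0.09) they were at 0.057 with TMM, 0.14 with no mitochondrial limit and 0.29 without barcodes over 5000 UMIs. Macrophages over CD8 T cells, mitochondrially encoded, moved in the MWA library (0.44) to 0.32 with TMM, 0.49 with no limit and 1.09 without barcodes over 5000 UMIs, and in the other library (0.48) to 0.51 with a limit of 5%, 0.58 with none and 1.38 without barcodes over 5000 UMIs. Stem-like over effector-like CD8 T cells, nuclear, moved in the MWA library (−0.65) to −0.31 with TMM and −0.13 without ribosomal protein genes, and in the other (−0.71) to −0.48 with TMM, −0.68 without barcodes over 5000 UMIs, −0.75 at resolution 1 and −0.20 without ribosomal protein genes. Hypoxic over C1q macrophage-like cells, nuclear, moved in the MWA library (−0.28) to 0.065 with TMM, −0.13 without barcodes over 5000 UMIs, −0.26 with doublets kept, −0.36 at resolution 1 and −0.15 without ribosomal protein genes, and in the other (−0.30) to 0.044, −0.047, −0.29, −0.37 and −0.19 for the same settings. Members past the fold upward, 0 in both classes, were 2 in CD8 T cells and 1 in macrophages with no filter on low values, and 1 in macrophages without barcodes over 5000 UMIs. TMM moved 63 of 88 values of single members and leaving out barcodes over 5000 UMIs 62. In the alternatives that kept other barcodes, classes came from correlation with class means, which gave 73% of a sample of clustered barcodes their own class. The replicate-free design limits every difference between libraries.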
